A study of Mus musculus with 6 samples.

Results

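The translation initiation and elongation factor genes are the genes whose symbol begins with Eif or Eef and a digit, without the kinases Eif2ak1 to Eif2ak4 and Eef2k. The rule took 61 of the 16426 mouse genes that at least 1 liver library listed. They comprise 14 eIF3 subunit genes, 5 eEF1 subunit genes and 42 remaining factors. Eef1e1, which belongs to the multi-synthetase complex despite its symbol, was counted with the remaining factors. RNA-seq of whole liver was available from 3 livers labelled shRNA-S1PR2 and 3 livers labelled shRNA-Scramble. S1pr2 encodes one of the cell surface receptors of sphingosine 1-phosphate, a signalling lipid. The hairpin was carried by AAV8, an adeno-associated virus serotype that reaches the liver well, and was injected into the tail vein of wild-type mice. Scramble livers received AAV8 with a scramble hairpin. Both groups were of a mixed B6:sv129 background and 7 to 12 weeks old. The series text describes male mice given about 0.84 mg/kg dexamethasone, a synthetic glucocorticoid, in drinking water for 7 days. That text sets no group apart from the treatment, the labels of single livers do not repeat it, and livers without dexamethasone are not analysed here. The labels state neither the promoter of the hairpin nor that replicates are separate animals, so p-values measure the spread between these samples.

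Protein synthesis starts when eIF2 brings the initiator tRNA to the small ribosomal subunit, eIF4F binds the mRNA cap, and eIF3 holds the parts together while the start codon is found. eIF2B recharges eIF2 with GTP, and its inhibition by phosphorylated eIF2 is the switch of the integrated stress response. The 4E-BP proteins hold eIF4E back until mTORC1 phosphorylates them. During elongation eEF1A brings each aminoacyl-tRNA, the eEF1B complex recharges eEF1A, and eEF2 moves the ribosome along. Many mRNAs of this machinery begin with a pyrimidine-rich stretch, the TOP motif, through which mTORC1 controls their translation. The liver makes most plasma proteins and uses this machinery heavily.

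Sequencing depth was even over the 6 libraries, from 16558775 to 17410160 expected counts, and each listed 14522 to 15106 genes. S1pr2 itself had 3.04, 2.20 and 2.22 CPM in S1pr2 shRNA livers, against 4.41, 5.23 and 6.66 CPM in scramble livers, where CPM is the count scaled to library size. All S1pr2 shRNA livers lay below all scramble livers (log2 fold change −1.12, SE 0.24, edgeR adjusted p = 0.0301). Among other scalings, tests and sets of livers, the S1pr2 call was lost with FPKM values and without S1pr2 shRNA liver 2 or 3 or scramble liver 2 or 3 (highest adjusted p 0.117). Of 12230 genes with enough counts to test, 7.66% passed an adjusted p of 0.05, 3.02% higher and 4.64% lower in S1pr2 shRNA livers. Of these calls 60.6% were lower, a share of 48.5% with upper-quartile scaling and 30.8% with FPKM values, which also moved the median log2 fold change of all genes to 0.16. Summed hepatocyte markers were 86949 to 128490 CPM in S1pr2 shRNA livers and 134660 to 165820 CPM in scramble livers. Of the 8 markers 0 passed the edgeR test, and 4 had an unadjusted p under 0.05, as did 24.5% of all genes. DESeq2 called Alb, Apoa1, Apob and Tat of the 8 markers, and limma-voom called none. Alb made up most of the marker sum, at 75486 ± 16172 CPM in S1pr2 shRNA livers and 113600 ± 13620 CPM in scramble livers (SD, n = 3 each). Apoa1 stood the other way at 10943 ± 2272 CPM in S1pr2 shRNA livers and 5169.5 ± 2904 CPM in scramble livers. Of 6 endothelial markers Kdr and Cdh5 passed (33.3%, against 7.66% of all genes), and DESeq2 also called Stab2. Kdr did not pass without S1pr2 shRNA liver 2 or 3 or any 1 scramble liver, and Cdh5 not without any 1 liver. The summed level was 186 to 205 CPM in S1pr2 shRNA livers and 157 to 170 CPM in scramble livers. Lyve1 of the same list stood the other way at 10.9 ± 4.31 CPM in S1pr2 shRNA livers and 19.5 ± 6.70 CPM in scramble livers (SD, n = 3 each), with overlap. Kupffer cell markers summed to 99.2 to 189.9 CPM in S1pr2 shRNA livers and 72.4 to 116 CPM in scramble livers, and DESeq2 called Cd5l among them while edgeR called none. Stellate cell markers summed to 296 to 392 CPM in S1pr2 shRNA livers and 189 to 365 CPM in scramble livers, and cholangiocyte markers to 15.1 to 20.4 CPM in S1pr2 shRNA livers and 10.9 to 24.4 CPM in scramble livers. The groups overlapped in these last 3 sums. T and B cell markers summed to 0.919 CPM or less in every liver. The part of these markers in the results below was not tested, and in whole liver fewer cells of a type and less RNA per cell cannot be told apart.

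Of the 58 members with enough counts, 7 passed the test. Eef1b2, Eef1g, Eif3f, Eif1a and Eif4ebp2 rose in S1pr2 shRNA livers, and Eif2a and Eif2b1 fell. The called share was 12.1% of the tested members, against a background of 7.66%. The 5 that rose were 8.62% of the members, against 3.02% of all genes, and the 2 that fell were 3.45%, against 4.64%. The median log2 fold change of the members was 0.02, with an interquartile range of −0.20 to 0.22, and that of all genes was 0.01, with a range of −0.21 to 0.25. The median absolute change was 0.22 for members and 0.23 for all genes. Of the 58, 33 lay under 0.25 in absolute log2 fold change and 7 above 0.5. Groups did not overlap for 25 of the 58 (43.1%), against 31.9% of all genes. Of the members 14 (24.1%) were higher in S1pr2 shRNA livers, against 15.1% of all genes, and 11 (19.0%) were lower, against 16.8%. These comparisons use CPM. By FPKM the 14 stayed higher without overlap, and Eif2a, Eif2b1, Eif2b3 and Eif4e stayed lower. Eif1ax, Eif2s3y, Eif3g, Eif3k, Eif3l, Eif4a2, Eif4a3, Eif4h and Eif5b, which overlapped by CPM, were also higher without overlap by FPKM. The share of all genes without overlap by FPKM was not computed. Eif2d, Eif2s3x, Eif3c, Eif4g1, Eif4g2, Eif5 and Eif5a, lower without overlap by CPM, overlapped by FPKM. The median coefficient of variation of a member was 6.12% among S1pr2 shRNA livers and 9.12% among scramble livers. Scramble liver 1 had the lowest value of all 6 livers for 24 members and the highest for 17.

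**Figure D1:**
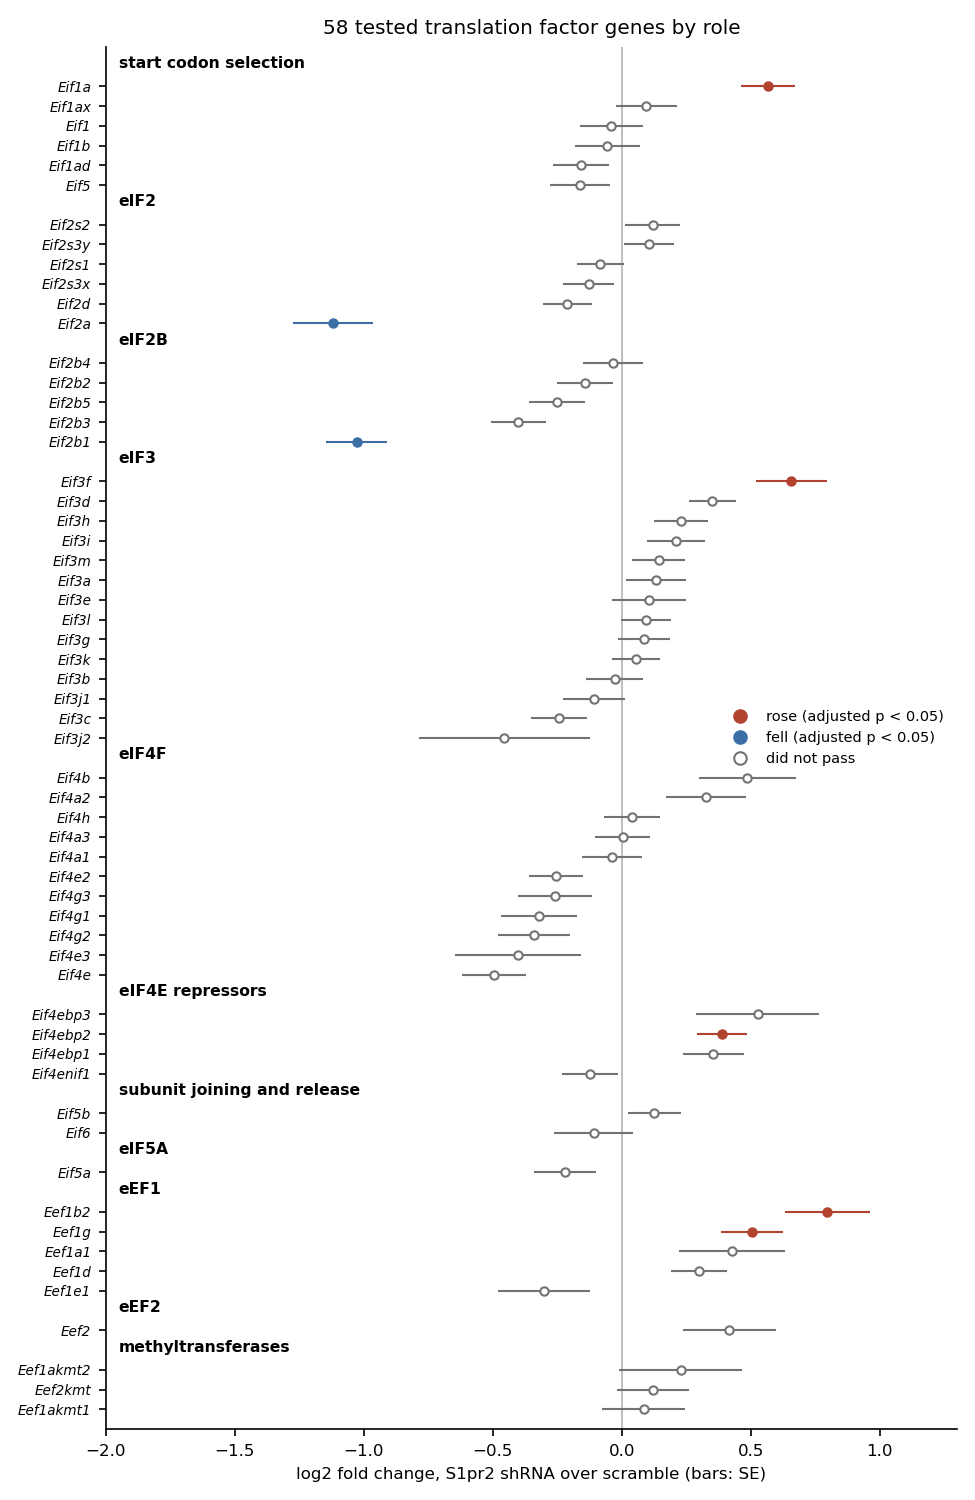
Log2 fold changes of the 58 tested translation factor genes by role, S1pr2 shRNA over scramble livers, with bars of 1 SE (3 livers a group). Filled points passed an adjusted p of 0.05, and the 2 that fell (blue) lie at −1.12 and −1.03 while the 5 that rose (red) lie between 0.39 and 0.80.

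Of eEF1, eIF3 and the remaining factors, the eEF1 subunits had the highest median. All 4 tested subunits were higher in every S1pr2 shRNA liver than in every scramble liver, as were 15.1% of all genes, and 2 of them rose, as did 3.02% of all genes. Their median log2 fold change was 0.47 (range 0.30 to 0.80), against 0.01 over all genes. Eef1b2, the exchange factor subunit that reloads eEF1A with GTP, had 203, 176 and 169 CPM in S1pr2 shRNA livers, against 86.0, 102 and 128 CPM in scramble livers. The lowest S1pr2 shRNA liver was above the highest scramble liver. Its mean was 183 ± 17.97 CPM in S1pr2 shRNA livers and 105 ± 21.0 CPM in scramble livers (SD, n = 3 each), a 1.74-fold difference (log2 0.80, SE 0.16, edgeR adjusted p = 0.0278). Its counts were fractional in 5 libraries, so some of its reads were shared with other sequences. Eef1g, the scaffold subunit of the same exchange complex, had 275, 247 and 239 CPM in S1pr2 shRNA livers, against 170, 178 and 188 CPM in scramble livers. Here too no liver of one group reached the other, and the difference was 1.42-fold (log2 0.51, SE 0.12, edgeR adjusted p = 0.0440). The Eef1b2 call was lost without any 1 liver other than scramble liver 3 (highest adjusted p 0.101), and the Eef1g call without any 1 liver (highest adjusted p 0.130) or without a count filter (0.0521), while both log2 fold changes stayed above 0.44.

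Eef1d, the other exchange subunit of the complex, had 64.3, 66.0 and 61.2 CPM in S1pr2 shRNA livers and 46.4, 51.5 and 57.7 CPM in scramble livers, without passing the test (log2 fold change 0.30, adjusted p = 0.137). Eef1a1, the carrier of aminoacyl-tRNA and the member with the most reads, had 5110.4, 5693 and 5658 CPM in S1pr2 shRNA livers and 3127, 4424 and 4689.7 CPM in scramble livers. The groups did not overlap, but scramble liver 1 lay far below the other scramble livers, and the log2 fold change of 0.43 (SE 0.21) had an adjusted p of 0.247. Its counts were fractional in all 6 libraries. Without scramble liver 1 it was 0.27 (adjusted p = 0.461). Eef1a1 alone took 0.589%, 0.561% and 0.581% of all expected counts in S1pr2 shRNA livers and 0.303%, 0.408% and 0.449% in scramble livers. Eef1a2, the form of skeletal muscle and neurons, had 1 count in scramble liver 3 and none elsewhere, and was not tested. Summed markers of muscle and neurons were at 2.45 CPM or less in every liver. Summed without Eef1a1, eEF1 subunits were at 543, 489.6 and 469 CPM in S1pr2 shRNA livers, against 303, 332 and 373 CPM in scramble livers.

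Eef2, the translocase of elongation, had 1739, 1904 and 1700.4 CPM in S1pr2 shRNA livers and 1085, 1347 and 1568 CPM in scramble livers. The groups were apart, yet the log2 fold change of 0.42 (SE 0.18) did not pass (adjusted p = 0.205). The FPKM ratio of Eef1a1 to Eef2 was 5.18, 5.27 and 5.86 in S1pr2 shRNA livers and 5.08, 5.79 and 5.27 in scramble livers, so it overlapped. Eef1a1 to Eef1b2, by contrast, stood at 27.2, 34.9 and 36.2 in S1pr2 shRNA livers and at 39.3, 46.9 and 39.8 in scramble livers, with no overlap.

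**Figure D2:**
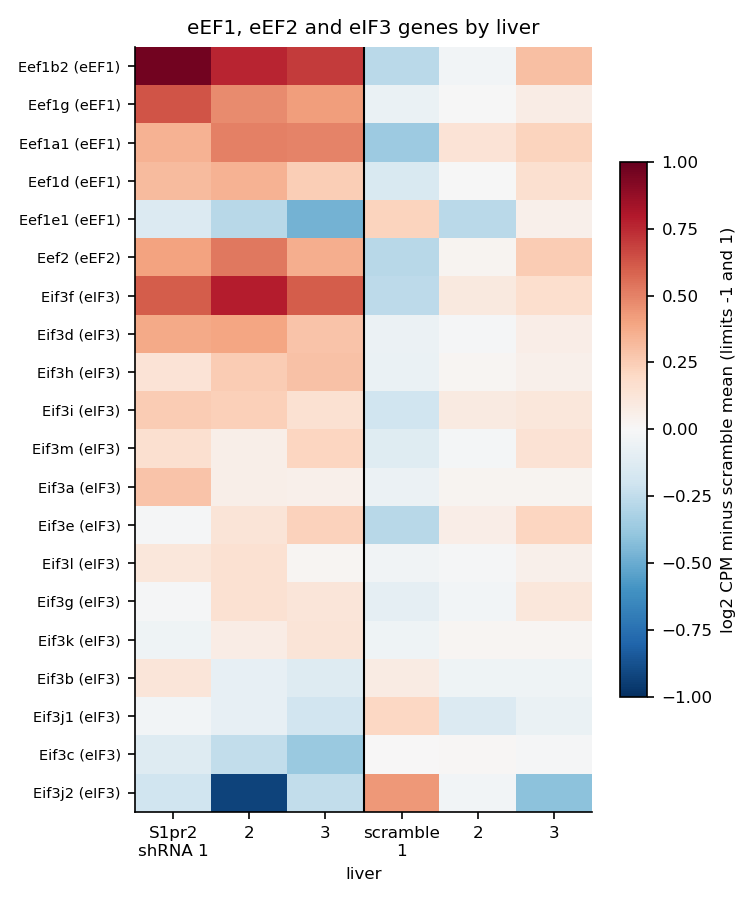
Log2 CPM of eEF1, eEF2 and eIF3 genes in each liver minus the mean of the scramble livers (colour limits −1 and 1), with S1pr2 shRNA livers in the left 3 columns. Eef1b2 is at 0.97, 0.76 and 0.70 in S1pr2 shRNA livers, and most eIF3 genes are near 0.

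The eIF3 scaffold had 1 of 14 subunits called (7.14%), near the 7.66% of all genes. Its median log2 fold change was 0.10, with a range of −0.45 to 0.66, and 10 of the 14 were above 0 (11 with upper-quartile scaling and 12 with FPKM). The median was 0.06 without scramble liver 1 and 0.15 without scramble liver 3. Eif3f was the exception. This subunit, which carries the MPN fold and is known from muscle as a regulator of protein synthesis, had 116, 131 and 116 CPM in S1pr2 shRNA livers, against 63.4, 81.1 and 85.4 CPM in scramble livers. All 3 S1pr2 shRNA livers were above all 3 scramble livers. The difference was 1.58-fold (log2 0.66, SE 0.14, edgeR adjusted p = 0.0292), and its call was lost without S1pr2 shRNA liver 2 or 3 or without scramble liver 2 or 3 (highest adjusted p 0.115). Eif3d, a subunit that can bind the cap of some mRNAs, had 63.9, 64.4 and 59.7 CPM in S1pr2 shRNA livers, against 47.1, 48.7 and 51.5 CPM in scramble livers. The groups were apart, and the log2 fold change of 0.35 (SE 0.09) missed the threshold at an adjusted p of 0.0568. It passed with DESeq2, with upper-quartile scaling and in both FPKM fits.

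Eif3h, Eif3i and Eif3a were higher without overlap and without passing, Eif3h at a log2 fold change of 0.23 (adjusted p = 0.223), Eif3i at 0.21 (0.304) and Eif3a, the large core subunit, at 0.13 (0.535). Eif3c, the core partner of Eif3a, had 121, 112 and 103 CPM in S1pr2 shRNA livers and 133, 133 and 131 CPM in scramble livers. All S1pr2 shRNA livers were below the scramble livers by CPM, though not by FPKM, at a log2 fold change of −0.24 and an adjusted p of 0.213. By CPM the other 8 subunits overlapped between the groups, from Eif3j2 at −0.45 (SE 0.33, fractional counts in all 6 libraries) to Eif3m at 0.14. Of these, Eif3g, Eif3k and Eif3l were higher without overlap by FPKM. Within a liver the FPKM ratio of Eif3f to Eif3c was 1.86, 2.28 and 2.20 in S1pr2 shRNA livers, against 0.928, 1.18 and 1.27 in scramble livers. On the same scale the most abundant eIF3 mRNA in each liver was Eif3h, 3.26 to 4.07 times the least abundant in S1pr2 shRNA livers and 3.45 to 3.58 times in scramble livers, leaving out Eif3j2. Summed over the 14 genes, eIF3 was at 1163 ± 24.0 CPM in S1pr2 shRNA livers and 1067 ± 41.4 CPM in scramble livers (SD, n = 3 each).

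The 40 tested remaining factors centred below 0, with a median log2 fold change of −0.07, 2 that rose, 2 that fell and 36 that did not pass (10% called, against 7.66% of all genes). Of these 40, 16 were above 0, but 20 with upper-quartile scaling and 25 with FPKM, so the side of the median depends on the scaling. Without scramble liver 2 the median was −0.13. The sum of the 42 remaining genes overlapped at 5459.5, 5705.5 and 5322 CPM in S1pr2 shRNA livers and 4974, 5099 and 5347 CPM in scramble livers. Ribosomal protein genes, many of which are known to share the TOP motif with eEF1 and eEF2, were at 21433, 21885 and 20288 CPM in S1pr2 shRNA livers and 11688, 14356 and 16717 CPM in scramble livers. Of 80 tested, 40 rose, against 3.02% of all genes, and 40 did not pass, with a median log2 fold change of 0.65. DESeq2 called 69 of them and limma-voom 37. Rps6 was the only ribosomal protein gene followed with single livers left out, and its call was lost without any 1 liver other than S1pr2 shRNA liver 1.

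**Figure D3:**
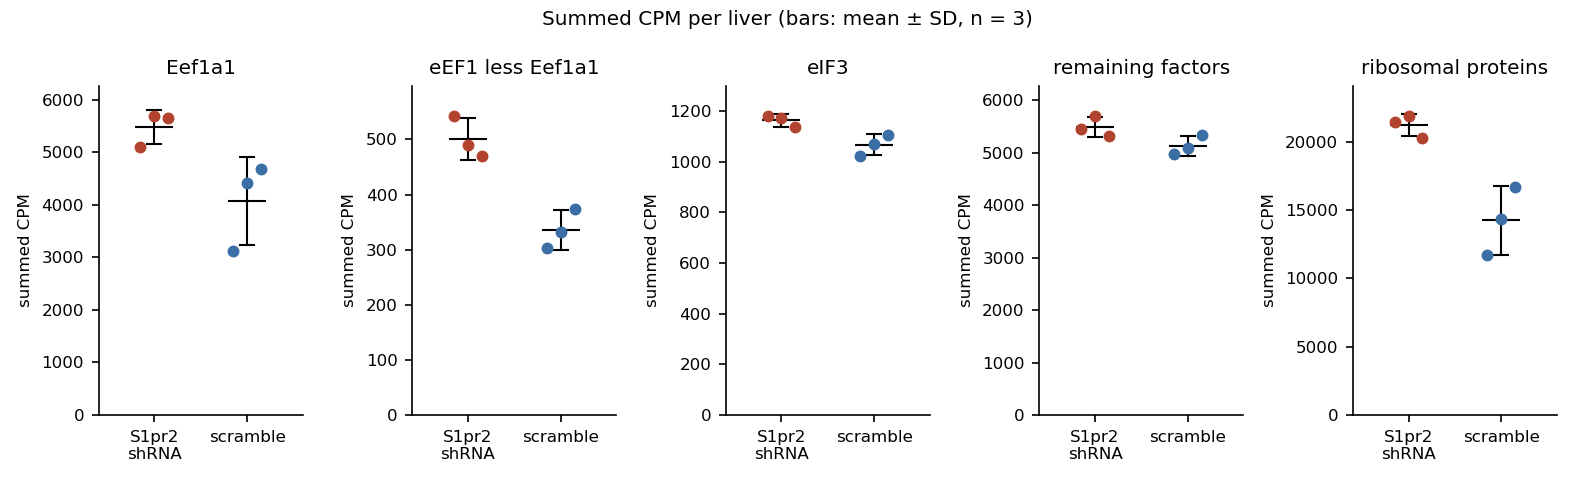
Summed CPM per liver of Eef1a1, the eEF1 subunits without Eef1a1, eIF3, the remaining factors and the ribosomal protein genes (points are livers 1 to 3 of each group, bars mean and SD). The eEF1 subunits without Eef1a1 average 500.5 in S1pr2 shRNA livers and 336 in scramble livers, and the remaining factors overlap.

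The annotated starts of several members are shown because of the TOP motif named above. A stretch like the TOP core, CTNTTNC on the sense strand within 50 bases either side of the annotated start, was chosen as a search after values were seen. It was in 13.6% of 27025 promoters and in 12.4% of 9801 tested genes with a window. Among the members 8 of 46 (17.4%) held it, among eIF3 and eEF1 symbols (Eef1e1 included) 5 of 14, and among ribosomal protein genes 28 of 63 (44.4%). On the antisense strand 1 of the 46 members held it, against 13.6% of all promoters. The 30 bases shown run from 5 bases before the RefSeq start (build GRCm38.p6) to the bases after it, for the 4 factors with the largest absolute changes and for Eef1a1 and Eef2, with any match to the searched letters in capitals. The windows lie at chr1:63176826-63176855 on the plus strand for Eef1b2, chr7:108934410-108934439 plus for Eif3f, chr9:78481700-78481729 minus for Eef1a1 and chr10:81176626-81176655 plus for Eef2. For the genes that fell they lie at chr3:58525816-58525845 plus for Eif2a and chr5:124579107-124579136 minus for Eif2b1.
Eef1b2: gttccgccggaagtagccgaggccttgcgt
Eif3f: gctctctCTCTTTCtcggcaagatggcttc
Eef1a1: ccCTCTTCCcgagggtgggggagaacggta
Eef2: cgggcgttgacgtcagcggtCTCTTCCgcc
Eif2a: cgcccgctccggagagggagggcgagcgcc
Eif2b1: ttccggcgccgacgagtgacgccacgcacg
The match is present in Eif3f, Eef1a1 and Eef2 and in none of Eef1b2, Eif2a or Eif2b1 in this window. A match was not tied to the first base of the mRNA, and only 28 of 63 ribosomal protein genes had one. Its presence or absence therefore does not show whether a gene has a TOP motif. The log2 fold changes of the members holding it were 0.66 for Eif3f, 0.43 for Eef1a1, 0.42 for Eef2, 0.23 for Eef1akmt2, 0.14 for Eif3m, −0.24 for Eif3c and −0.25 for Eif2b5, and Eef1a2 was not tested. Of these 7 tested genes Eif3f passed. Eef1g, Eef1d, Eif1a, Eif3h and Eif3i are among the 15 members without a window in the table.

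Among the start codon factors, Eif1a alone of 6 rose and none fell (16.7% called, against 7.66% of all genes). It encodes an eIF1A, which helps the scanning ribosome settle on the start codon. It had 78.0, 75.1 and 66.5 CPM in S1pr2 shRNA livers, against 50.8, 45.5 and 51.9 CPM in scramble livers. No S1pr2 shRNA liver was as low as any scramble liver, and the difference was 1.48-fold (log2 0.57, SE 0.11, edgeR adjusted p = 0.0208). Its call was lost without S1pr2 shRNA liver 2, scramble liver 2 or scramble liver 3 (highest adjusted p 0.0890). Its counts were fractional in 5 libraries. Eif1ax, its X-linked relative, had a log2 fold change of 0.10 and overlapped by CPM but not by FPKM (edgeR adjusted p = 0.683). Eif5, the GTPase activator of eIF2, was at 248, 234 and 253 CPM in S1pr2 shRNA livers and at 266, 273 and 283 CPM in scramble livers, with an adjusted p of 0.440.

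The eIF2 group divided by gene, with 1 of 6 called (16.7%, against 7.66% of all genes). Eif2a, which encodes eIF2A, a separate protein that is not a subunit of eIF2, fell. It had 14.5, 17.0 and 20.3 CPM in S1pr2 shRNA livers, against 31.6, 39.8 and 41.0 CPM in scramble livers. The level in every S1pr2 shRNA liver was under that in every scramble liver, and edgeR gave an adjusted p of 0.0084 (log2 fold change −1.12, SE 0.16). The true subunits overlapped or differed by little, at −0.08 for Eif2s1 (the phosphorylated alpha subunit), 0.12 for Eif2s2 (beta), −0.13 for Eif2s3x and 0.11 for Eif2s3y (gamma, X and Y copies). Eif2s3x was lower without overlap by a narrow margin in CPM but overlapped by FPKM, and both Eif2s1 and Eif2s3x were above 0 with FPKM. Eif2s3y overlapped by CPM but was higher without overlap by FPKM. Within a liver the FPKM ratio of Eif2a to Eif2s1 was 0.502, 0.590 and 0.707 in S1pr2 shRNA livers, against 1.00, 1.39 and 1.31 in scramble livers. Eif2d, which delivers tRNA outside the usual route, was lower without overlap by CPM but not by FPKM (log2 fold change −0.21, adjusted p = 0.216).

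Of the 5 subunits of eIF2B, 1 passed (20%, against 7.66% of all genes). All 5 were below 0 (median log2 fold change −0.25), though 4 were with upper-quartile scaling and 3 with FPKM. Eif2b4 (−0.03) was above 0 under both and Eif2b2 (−0.14) with FPKM. Eif2b1, the alpha regulatory subunit that senses phosphorylated eIF2, fell to 7.99, 9.92 and 9.13 CPM in S1pr2 shRNA livers, against 18.9, 17.5 and 18.7 CPM in scramble livers. The groups were far apart relative to their spread, with means of 9.02 ± 0.969 CPM in S1pr2 shRNA livers and 18.4 ± 0.720 CPM in scramble livers (SD, n = 3 each). Its log2 fold change was −1.03 (SE 0.12, edgeR adjusted p = 0.0053), the smallest p of the members, with counts fractional in 4 libraries. Eif2b1 stood at 0.238, 0.340 and 0.313 of Eif2b4, the delta subunit, in S1pr2 shRNA livers and at 0.592, 0.636 and 0.551 in scramble livers by FPKM. Eif2b3, the gamma subunit, had 11.1, 10.7 and 9.78 CPM in S1pr2 shRNA livers, against 13.5, 14.1 and 14.1 CPM in scramble livers. Its groups did not overlap, but the adjusted p was 0.0624 (log2 fold change −0.40, SE 0.11). Eif2b5, the catalytic epsilon subunit, was at −0.25 with overlap.

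**Figure D4:**
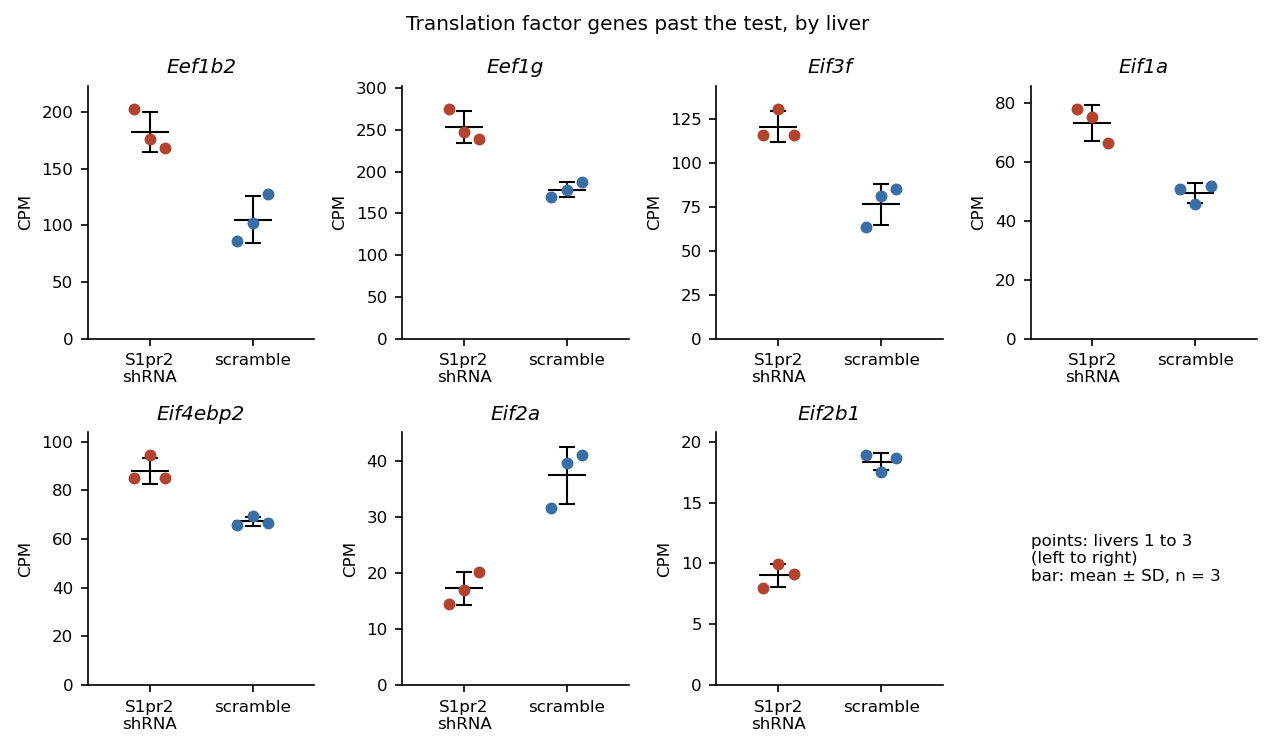
CPM of the 7 translation factor genes that passed the test, by liver (points are livers 1 to 3 of each group from left to right, bars mean and SD, axes from 0). Eif2b1 lies between 7.99 and 9.92 in S1pr2 shRNA livers and between 17.5 and 18.9 in scramble livers, and in each panel the groups do not overlap.

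Of the 11 tested genes of the cap-binding complex eIF4F, 0 passed the edgeR test. An unadjusted p under 0.05 was reached by 4 of them, and by 24.5% of all genes. DESeq2 called Eif4e and limma-voom called none. Eif4e, the cap-binding protein, had 44.2, 43.7 and 47.0 CPM in S1pr2 shRNA livers, against 74.2, 55.7 and 60.3 CPM in scramble livers. The groups were apart and scramble liver 1 was highest, at a log2 fold change of −0.50 (SE 0.12) and an adjusted p of 0.0507. It also passed with another filter on low counts and with none (lowest adjusted p over all alternatives 0.0180, highest 0.202). Eif4b, an activator of the eIF4A helicase, stood the other way at 234, 254 and 249.8 CPM in S1pr2 shRNA livers and 128, 189 and 211 CPM in scramble livers (log2 fold change 0.49, adjusted p = 0.159). Without scramble liver 1 it was 0.30. The scaffolds Eif4g1 (−0.32, adjusted p = 0.231) and Eif4g2 (−0.34, 0.185) were lower without overlap by CPM but overlapped by FPKM. Eif4a1, the helicase with the highest FPKM, was at −0.04 (above 0 with upper-quartile scaling and FPKM). Eif4a2 was at 0.33 with overlap by CPM but not by FPKM.

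Of the 4 genes whose proteins bind and restrain eIF4E, Eif4ebp2 rose and 3 did not pass (25% called, against 7.66% of all genes). Eif4ebp2 had 84.9, 94.3 and 84.9 CPM in S1pr2 shRNA livers, against 65.7, 69.4 and 66.6 CPM in scramble livers. The groups were apart by a wide margin for their spread (log2 fold change 0.39, SE 0.10, edgeR adjusted p = 0.0485), but the call was lost without any 1 liver (highest adjusted p 0.185), with limma-voom and without a count filter. Eif4ebp1 had 74.0, 64.9 and 58.5 CPM in S1pr2 shRNA livers and 55.9, 48.4 and 50.2 CPM in scramble livers (log2 fold change 0.35, adjusted p = 0.111). Eif4ebp3 varied within both groups, at 322, 398 and 218 CPM in S1pr2 shRNA livers and 176, 259 and 216 CPM in scramble livers, and overlapped. Eif4enif1, which carries eIF4E into the nucleus, was at −0.12 (above 0 with FPKM). Relative to Eif4e by FPKM, Eif4ebp1 stood at 5.04, 4.47 and 3.75 in S1pr2 shRNA livers, against 2.27, 2.62 and 2.51 in scramble livers. Eif4ebp2 stood at 3.12, 3.51 and 2.94 times Eif4e in S1pr2 shRNA livers, against 1.44, 2.03 and 1.80 in scramble livers. Neither of these ratios overlapped between the groups, but Eif4ebp3, the most abundant of the 3 by FPKM, did overlap at 18.6, 23.3 and 11.9 times Eif4e in S1pr2 shRNA livers and 6.05, 11.9 and 9.14 times in scramble livers. The ratios were chosen after the levels were seen, mostly for genes already known to lie apart, so they restate those levels and add no support.

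**Figure D5:**
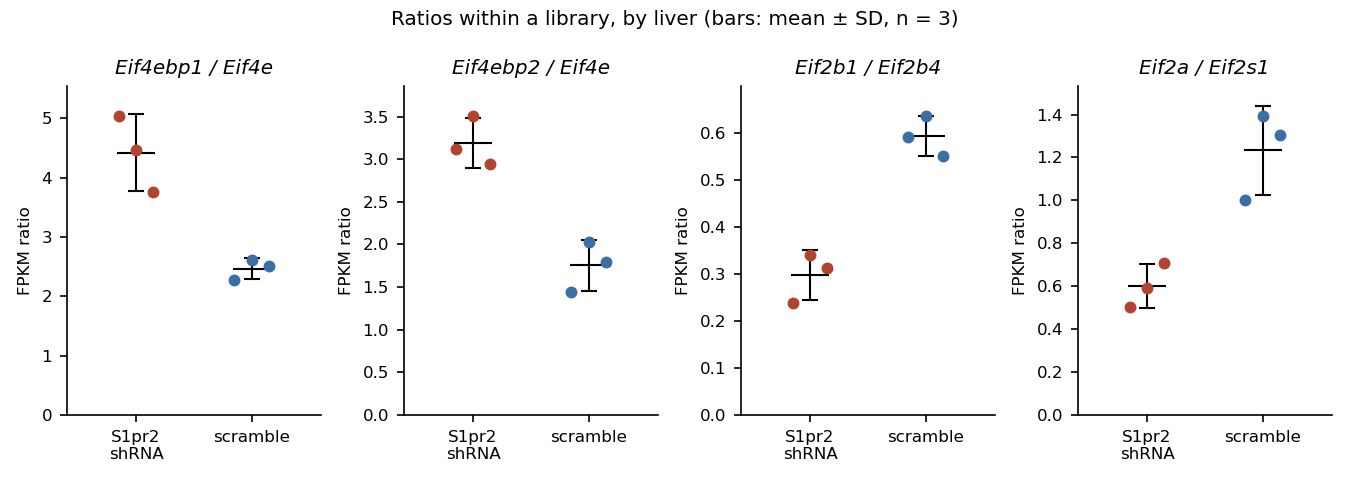
FPKM ratios within a liver of Eif4ebp1 and Eif4ebp2 to Eif4e, Eif2b1 to Eif2b4 and Eif2a to Eif2s1 (points are livers, bars mean and SD, n = 3 a group). The mean Eif4ebp1 to Eif4e ratio is 4.42 in S1pr2 shRNA livers and 2.46 in scramble livers.

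The other factors showed smaller differences. Eif5a, which relieves stalled ribosomes and carries the hypusine modification, was lower without overlap by CPM but not by FPKM (log2 fold change −0.22, adjusted p = 0.312). Eif5b, which joins the ribosomal subunits, was at 0.13 and Eif6, which keeps them apart, at −0.11 (above 0 with FPKM), both with overlap by CPM. By FPKM Eif5b was higher without overlap. The methyltransferases Eef1akmt1, Eef1akmt2 and Eef2kmt overlapped between the groups at 0.08, 0.23 and 0.12. Eef1e1 was at −0.30 with overlap. Eif4e1b and Eif5a2 had too few counts to test, at most 8.89 and 11 counts in a library. By FPKM, which allows levels of different genes to be compared, Eef1a1 led with a median of 2819 over the 6 livers (range 1691 to 3289), followed by Eef2 at 514, Eif5a at 266, Eif1 at 218 and Eif4ebp3 at 203. The place of Eif4ebp3 differed between the group means but did not separate the livers. In S1pr2 shRNA livers it averaged 289 ± 80.7 FPKM, beside 264 ± 26.7 for Eif5a and 219 ± 1.61 for Eif1, and in scramble livers 180.5 ± 30.3 FPKM, beside 278 ± 20.5 for Eif5a and 203 ± 14.9 for Eif1 (SD, n = 3 each). S1pr2 shRNA liver 3 had Eif4ebp3 at 196 FPKM, below Eif5a at 253 and Eif1 at 219. Scramble liver 2 had Eif4ebp3 at 210 FPKM, above Eif1 at 193.

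The kinases that act on these factors mostly did not pass (20% called, against 7.66% of all genes). Of 5, Eef2k, which inhibits eEF2, fell to 4.35, 4.47 and 5.39 CPM in S1pr2 shRNA livers, against 6.31, 9.89 and 9.86 CPM in scramble livers. The groups were apart (log2 fold change −0.88, SE 0.21, edgeR adjusted p = 0.0455), though the call was lost in 9 of 16 alternatives (range of adjusted p 0.0121 to 0.148), among them the fits without any 1 liver other than scramble liver 1. Its counts were fractional in all 6 libraries. The eIF2 kinases Eif2ak1 to Eif2ak4 were between 0.12 and 0.30 and did not pass.

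Among 18 tested targets of the integrated stress response, 1 rose and 1 fell (11.1% called, against 7.66% of all genes), with a median log2 fold change of 0.01. Ddit3, the transcription factor CHOP, averaged 7.14 ± 1.01 CPM in S1pr2 shRNA livers and 3.23 ± 0.442 CPM in scramble livers (SD, n = 3 each, log2 fold change 1.14, edgeR adjusted p = 0.0142). Ppp1r15b, a subunit of the eIF2 phosphatase, averaged 61.5 ± 6.17 CPM in S1pr2 shRNA livers and 86.6 ± 9.28 CPM in scramble livers (log2 fold change −0.49, adjusted p = 0.0485). Atf4, the transcription factor that this response induces through translation, was at −0.23 and did not pass (edgeR adjusted p = 0.394). Asns was at 0.85, higher without overlap by CPM, and did not pass (edgeR adjusted p = 0.0660). DESeq2 called Asns and limma-voom did not. Of the 18 genes 9 were above 0 and 9 below. The Ddit3 call was lost without S1pr2 shRNA liver 2 or scramble liver 3 (highest adjusted p 0.0518). Ppp1r15b was called in only 3 of 16 alternatives (range of adjusted p 0.0115 to 0.164), and its call was lost without any 1 liver, with limma-voom, with upper-quartile scaling, without a count filter and with FPKM. The counts of Ddit3 were fractional in 5 libraries.

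Of 17 mTORC1 signalling genes, Rps6 rose and 16 did not pass (5.88% called, against 7.66% of all genes), with Mtor at −0.50 (adjusted p = 0.0902). Rps6 is itself a ribosomal protein gene, at 628 ± 32.8 CPM in S1pr2 shRNA livers and 386 ± 54.8 CPM in scramble livers (SD, n = 3 each). In termination, Etf1, the release factor eRF1, was the 1 of 9 genes that fell (11.1% called, against 7.66% of all genes). Etf1 stood at 60.1 ± 3.91 CPM in S1pr2 shRNA livers and 95.8 ± 11.5 CPM in scramble livers (log2 fold change −0.67, edgeR adjusted p = 0.0175). Of 23 tRNA synthetase genes, Tars and Yars fell, with log2 fold changes of −1.07 (adjusted p = 0.0224) and −0.53 (adjusted p = 0.0292), and 21 did not pass (8.7% called, near the 7.66% of all genes). Of 19 other factors Pabpc4, a poly(A)-binding protein, rose (0.64, adjusted p = 0.0458) and Mknk1, a kinase of eIF4E, fell (−0.56, adjusted p = 0.0309). The remaining 17 of these 19 did not pass, where 7.66% of all genes were called. Of 9 mitochondrial translation factors 0 passed with edgeR or limma-voom, and DESeq2 called Gfm1. With edgeR 1 had an unadjusted p under 0.05, against 24.5% of all genes. Leaving out S1pr2 shRNA liver 2, or scramble liver 3, ended each of the calls of Rps6, Etf1, Tars, Yars, Pabpc4 and Mknk1. The same held for scramble liver 2 except for Etf1, for S1pr2 shRNA liver 3 except for Etf1 and Pabpc4, for S1pr2 shRNA liver 1 with Tars, Pabpc4 and Mknk1, and for scramble liver 1 with Rps6, Pabpc4 and Mknk1. With FPKM the calls of Etf1, Yars, Pabpc4 and Mknk1 were also lost, with upper-quartile scaling that of Yars, and with limma-voom or without the robust dispersion option that of Pabpc4. Pabpc4 was called in 6 of 16 alternatives, Yars and Mknk1 in 8 each. The highest adjusted p among all their alternatives was 0.146, for Yars.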

How the data were processed

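The tools named in the submitters' processing notes are HISAT2, Bowtie2, RSEM (1.2.12) and DESeq2, with build mm9. Neither their roles nor the use of strand is given, so reads of overlapping antisense genes cannot be told apart. The authors deposited expected counts and FPKM values per gene for each liver. Expected counts were rounded to whole numbers, filtered with filterByExpr and scaled by TMM, and CPM uses those scaled libraries. Group was tested by edgeR's quasi-likelihood F test (edgeR 4.0.16, R 4.3.3, limma 3.58.1, DESeq2 1.42.0), two-sided, with Benjamini-Hochberg adjustment over 12230 genes and a threshold of 0.05. The pipeline was tested on simulated data. Rows without a symbol held 0.204% to 0.255% of counts. A fractional expected count shows that RSEM divided reads among sequences. Genes named are members that passed, those with the smallest p or highest level in their role, all eIF3 and eEF1 subunits, members whose groups do not overlap, and, in other lists, genes that passed or had the smallest p. Members and lists were chosen with earlier results of these data known. The TOP-like motif and the FPKM ratios were chosen after values were seen. Sequences are from RefSeq (GRCm38.p6), in which 46 of 61 members matched a window. The livers' replicate numbers were checked for pairing. Alternatives were other scalings, filters and tests, FPKM on a log2 scale with pseudocounts of 0.1 and 1, a replicate block, and leaving out each liver.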

Additional observations from a re-analysis of the deposited data

How the results depend on the processing

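Eif2a and Eif2b1 fell in all 16 alternatives (highest adjusted p 0.0457 and 0.0309), while Eif1a kept its call in 13, Eif3f in 12, Eef1b2 in 10, Eef1g in 8 and Eif4ebp2 in 7. Over all tested members and alternatives no call changed sign, 30 calls were lost and 7 gained. Without a filter on low counts 3 members were higher. DESeq2's Wald test called 1466 genes, 616 of them higher. With limma on log2(FPKM + 0.1), 570 genes were higher and 254 lower, and the median log2 fold changes were 0.62 for eEF1, 0.25 for eIF3 and 0.090 for the remaining factors. With a pseudocount of 1, 243 genes were lower and the medians were 0.62, 0.25 and 0.062 for the same sets. Leaving out 1 liver gave 231 to 643 called genes (78 to 266 higher, 153 to 377 lower) and 2 to 4 called members (0 to 2 higher). The fewest genes were called without S1pr2 shRNA liver 2 and the most without S1pr2 shRNA liver 1. Fewer livers were fitted in each, and other causes were not tested.

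Livers with the same replicate number had deviations correlated at −0.06, 0.22 and −0.12, and livers with different numbers at −0.30 to 0.30. With 3 livers a group, these correlations cannot show whether the numbers pair the livers. A replicate block called 4 members, 2 of them higher, without Eef1b2, Eef1g and Eif4ebp2, and among the other genes named S1pr2, Ppp1r15b, Rps6, Yars and Pabpc4 were not called (adjusted p 0.0521 to 0.0925). Not every liver correlated best with its own number. With 3 livers a group and changes mostly under 0.5 on the log2 scale, a difference that missed the threshold is not shown to be absent. Genes with fractional counts and genes listed at few counts are the least certain.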
